A study of Mus musculus with 8 samples.

Results

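The caveolins and Cavin1 form the membrane coat of caveolae, and 4 of the 17592 genes in the table belong to this set. They are Cav1 (ENSMUSG00000007655), Cav2 (ENSMUSG00000000058), Cav3 (ENSMUSG00000062694) and Cavin1 (ENSMUSG00000004044, formerly Ptrf), and all 4 had a row. The set was chosen by name with the ropivacaine against control values of these arrays already known. Its differences between groups are therefore given as a description. Where members are set against p thresholds of the fit over all genes, nothing is read from the outcome.

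Caveolae are small flask-shaped pits of the plasma membrane, rich in cholesterol and sphingolipids, that are abundant in stromal, endothelial, muscle and fat cells. Caveolin-1, the product of Cav1, is the integral membrane protein that builds the coat in cells other than striated muscle. Caveolin-2 joins it in mixed oligomers and depends on it for transport out of the Golgi, while caveolin-3 is the form of striated muscle. Cavin1 is a cytosolic coat protein that is recruited to caveolin at the plasma membrane and without which caveolae do not form.

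The cells were mesenchymal stem cells of mouse bone marrow, strain given as C57B6/J, cultured to passage 10. The ropivacaine group (4 arrays) was exposed to 100 uM ropivacaine, a local anaesthetic of the amide class that acts on voltage-gated sodium channels. The control group (4 arrays) received no treatment, and both were collected at 24 h. The sample annotation and the design text give the dose in micromolar, whereas the treatment protocol gives 100 mM. The micromolar dose is used here. The labels do not say whether the arrays of a group are separate cultures or animals, so the spread between arrays may be technical. The values are log2 expression from single-colour Affymetrix exon arrays, with a lower quartile of 5.73, a median of 6.91 and an upper quartile of 8.42 over all arrays. Control replicate 2 and ropivacaine replicate 3 had the lowest estimated array weights, 0.580 and 0.708, and the members' log2 differences and pair correlations are also given without them. Rows of other genes carry no names, so markers of mesenchymal stem cells or of other cell types could not be read. In bulk RNA, fewer cells of a type and less RNA per cell cannot be told apart.

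Cav1 and Cav2 are direct neighbours on chromosome 6 in the RefSeq annotation (assembly GRCm38.p6), with no other gene listed between them and the same orientation. Cav3 lies elsewhere on chromosome 6 and Cavin1 on chromosome 11. The 250 bases before the annotated start of Cav2 and before the first annotated start of Cav1 are shown because these 2 neighbours averaged on opposite sides of the controls. Both sequences are from RefSeq, build GRCm38.p6, plus strand, 5′ to 3′. Cav2 spans chr6:17280935-17281184 and Cav1 spans chr6:17306085-17306334. Capitals mark matches to 4 motifs searched on both strands, the GC box (GGGCGG), the CCAAT box (CCAAT), the TATA box (TATAAA) and the AP-1 site (TGANTCA).
Cav2: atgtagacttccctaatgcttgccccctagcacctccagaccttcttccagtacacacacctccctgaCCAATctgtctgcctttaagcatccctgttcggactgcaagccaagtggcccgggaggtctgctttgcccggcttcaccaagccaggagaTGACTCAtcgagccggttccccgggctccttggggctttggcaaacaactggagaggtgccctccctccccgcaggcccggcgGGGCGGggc
Cav1: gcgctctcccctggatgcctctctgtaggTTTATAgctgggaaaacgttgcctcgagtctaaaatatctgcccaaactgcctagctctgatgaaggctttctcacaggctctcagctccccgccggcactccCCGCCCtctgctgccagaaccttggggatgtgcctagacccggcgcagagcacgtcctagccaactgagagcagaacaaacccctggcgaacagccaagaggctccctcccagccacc

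The Cav2 window held 1 CCAAT box, 1 AP-1 site and 1 GC box, which did not overlap each other. The AP-1 site reads TGACTCA and lies 92 to 86 bases before the start. The first Cav1 window held 1 GC box, 118 to 113 bases before the start, and 1 TATA box 221 to 216 bases before it, each on the opposite strand, with no overlap. It held no CCAAT box and no AP-1 site. Among 32851 windows of the same length in the RefSeq table, 32.7% held a GC box, 33.8% a CCAAT box, 12.4% a TATA box and 6.75% an AP-1 site. The second annotated start of Cav1 and the start of Cav3 had none of these letter strings in their 250 bases. Both annotated Cavin1 starts, which share nearly all their bases, had 1 GC box and 1 CCAAT box. The windows of Cav2 and of the first Cav1 start each held 10 CpG dinucleotides, that of Cavin1 held 12 and that of Cav3 held 4, against a median of 6. A letter match is a description of the sequence only.

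Cav1, the structural caveolin outside striated muscle, was lower on all 4 ropivacaine arrays than on any control array. Its log2 expression was 9.88, 9.88, 9.97 and 9.99 on control replicates 1 to 4 and 9.75, 9.64, 9.83 and 9.85 on ropivacaine replicates 1 to 4. The groups did not overlap, but the gap between the lowest control and the highest ropivacaine array was small beside the spread within the ropivacaine group. The means were 9.93 ± 0.06 and 9.77 ± 0.10 (SD, n = 4 each). The log2 difference, ropivacaine minus control, was -0.16 (SE 0.06), which is a 1.12-fold lower level. Ropivacaine replicate 2 lay farthest below the control mean, at -0.29, and ropivacaine replicates 3 and 4 lay nearest to it, at -0.09 and -0.08.

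Cav2, the partner that oligomerises with caveolin-1, averaged higher with ropivacaine. Control replicates 1 to 4 had log2 expression of 7.74, 7.59, 7.57 and 7.60, and ropivacaine replicates 1 to 4 had 7.78, 7.84, 7.71 and 7.86. The groups overlapped, because control replicate 1 exceeded ropivacaine replicate 3, while the other 3 ropivacaine arrays lay above every control. The means were 7.62 ± 0.08 and 7.80 ± 0.07 (SD, n = 4 each), a log2 difference of 0.17 (SE 0.05) or a 1.13-fold higher level. Without control replicate 1 the log2 difference was 0.21 (SE 0.05), and the control arrays then ended at 7.60, below the lowest ropivacaine array at 7.71.

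The order of the ropivacaine arrays was not the same for these neighbours. Ropivacaine replicate 4 lay farthest from the control mean for Cav2, at 0.23, and nearest to it for Cav1, at -0.08. Ropivacaine replicate 2 lay far from the control mean for both, at 0.22 for Cav2 and -0.29 for Cav1. All 4 ropivacaine arrays lay above the control mean of Cav2 and all 4 lay below that of Cav1.

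Cav3, which encodes the caveolin of striated muscle, had the largest mean difference of the 4 genes and by far the largest spread. Its log2 expression was 5.86, 6.22, 6.19 and 5.96 on control replicates 1 to 4 and 5.63, 5.41, 6.13 and 5.93 on ropivacaine replicates 1 to 4. Ropivacaine replicates 1 and 2 lay below every control array, replicate 4 lay within the control range and replicate 3 lay above the control mean. The means were 6.06 ± 0.18 and 5.77 ± 0.32 (SD, n = 4 each), a log2 difference of -0.28 (SE 0.16). Both means are close to the lower quartile of the deposited values. No background measure was at hand for this dim signal, and no linear fold is printed for it. Without ropivacaine replicate 3 the log2 difference was -0.40 (SE 0.14), and without ropivacaine replicate 2 it was -0.16 (SE 0.14), a change of more than 1.5 times from that single array.

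Cavin1, the coat protein gene, differed least. Its log2 expression was 7.71, 7.85, 7.86 and 7.75 on control replicates 1 to 4 and 7.78, 7.67, 7.76 and 7.73 on ropivacaine replicates 1 to 4. The groups overlapped, and only ropivacaine replicate 2 lay outside the control range. The means were 7.79 ± 0.07 and 7.74 ± 0.05 (SD, n = 4 each), a log2 difference of -0.05 (SE 0.05). The difference was about as large as its SE.

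**Figure D1:**
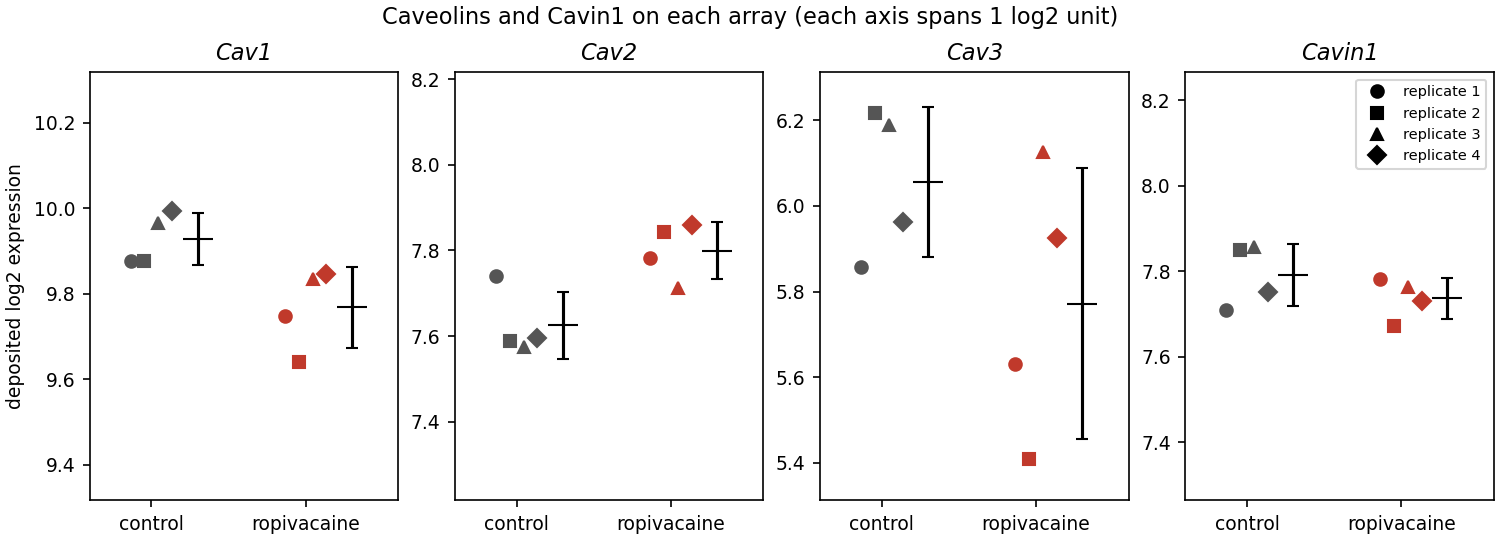
Deposited log2 expression of Cav1, Cav2, Cav3 and Cavin1 on each of the 4 control (grey) and 4 ropivacaine (red) arrays, with marker shape for the replicate number and bars for the mean ± SD. Cav1 separates the groups, Cav2 overlaps through control replicate 1 at 7.74, Cav3 spreads from 5.41 to 6.13 with ropivacaine, and the Cavin1 groups overlap.

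None of the 4 genes passed the threshold used for all genes. In the limma fit over 17592 genes, 0 of 4 had a Benjamini-Hochberg adjusted p below 0.05, against 0.404% of all genes. At an unadjusted p below 0.05 there were 2 of 4, Cav1 and Cav2, against 9.74% of all genes. Cav1 was above that unadjusted level without control replicate 3 or without control replicate 4. Cav3 was below it without ropivacaine replicate 3, alone or together with control replicate 2. The groups did not overlap in 1 of 4, Cav1, against 6.70% of all genes. Because the members were chosen with this contrast known, nothing is read from these counts. The median log2 difference of the 4 genes was -0.11 and that of all genes was -0.00475.

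Set among all genes, Cav3 had the most extreme difference of the 4 and Cavin1 the least. A larger absolute log2 difference was found in 11.9% of genes for Cav1, in 10.1% for Cav2, in 3.58% for Cav3 and in 50.3% for Cavin1. Differences at least as low as that of Cav1 were found in 952 genes, and differences at least as high as that of Cav2 in 980 genes. The absolute log2 difference that 90% of genes stayed below was 0.127 in the brightest 25% of genes, which hold Cav1 at 0.161. It was 0.167 in the next 25%, which hold Cav2 at 0.175 and Cavin1 at 0.055. It was 0.178 in the following 25%, which hold Cav3 at 0.285. Cav1, Cav2 and Cav3 lay beyond the bound of their signal range, Cav2 by little, and Cavin1 lay within it. The bound takes no account of spread within the groups, and Cav3 had an SE of 0.16 and groups that overlapped. Because the members were chosen with these differences known, their places among all genes are a description only.

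**Figure D2:**
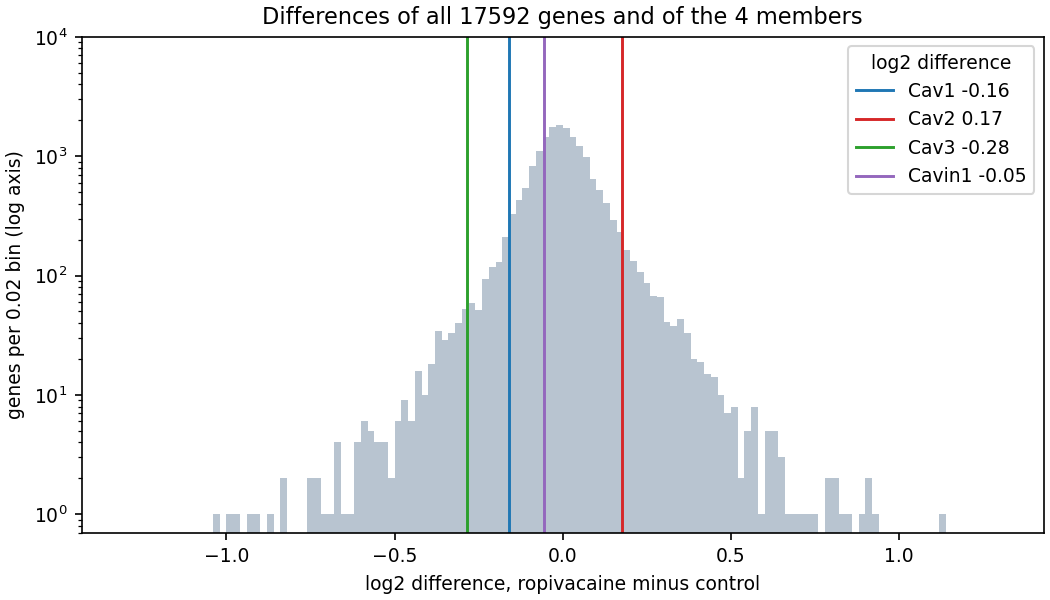
Histogram of the log2 difference, ropivacaine minus control, over all 17592 genes (count per bin of 0.02, log axis), with vertical lines at the 4 members. Cav1 (-0.16) and Cav2 (0.17) lie on either side of the centre, Cav3 (-0.28) farther out and Cavin1 (-0.05) near it.

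The spread within the groups, a measure apart from the difference between their means, was widest for Cav3 among the 4 genes. The residual SD on the log2 scale was 0.26 for Cav3, and 6.87% of all genes had a larger one. It was 0.08 for Cav1, 0.07 for Cav2 and 0.06 for Cavin1, where 58.3%, 64.7% and 74.9% of genes had a larger one. The median residual SD was 0.11 in the 25% of genes by mean signal that hold Cav3 and 0.06 in the brightest 25%, which hold Cav1. Cav3 was thus more variable than most genes of its signal range, and Cav1 slightly more than the median of its own.

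The directions of the 4 differences were kept when arrays were left out. Given the size of each difference beside its residual SD, leaving out 1 array could not have reversed any of them. With any 1 of the 8 arrays left out, the log2 difference ranged from -0.19 to -0.12 for Cav1, from 0.15 to 0.21 for Cav2, from -0.40 to -0.16 for Cav3 and from -0.08 to -0.03 for Cavin1. Without both control replicate 2 and ropivacaine replicate 3, it was -0.20 (SE 0.07) for Cav1 and 0.19 (SE 0.06) for Cav2. In that fit it was -0.35 (SE 0.14) for Cav3 and -0.04 (SE 0.06) for Cavin1. The Cav2 groups, which overlapped with all arrays, did not overlap without control replicate 1 or without ropivacaine replicate 3.

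**Figure D3:**
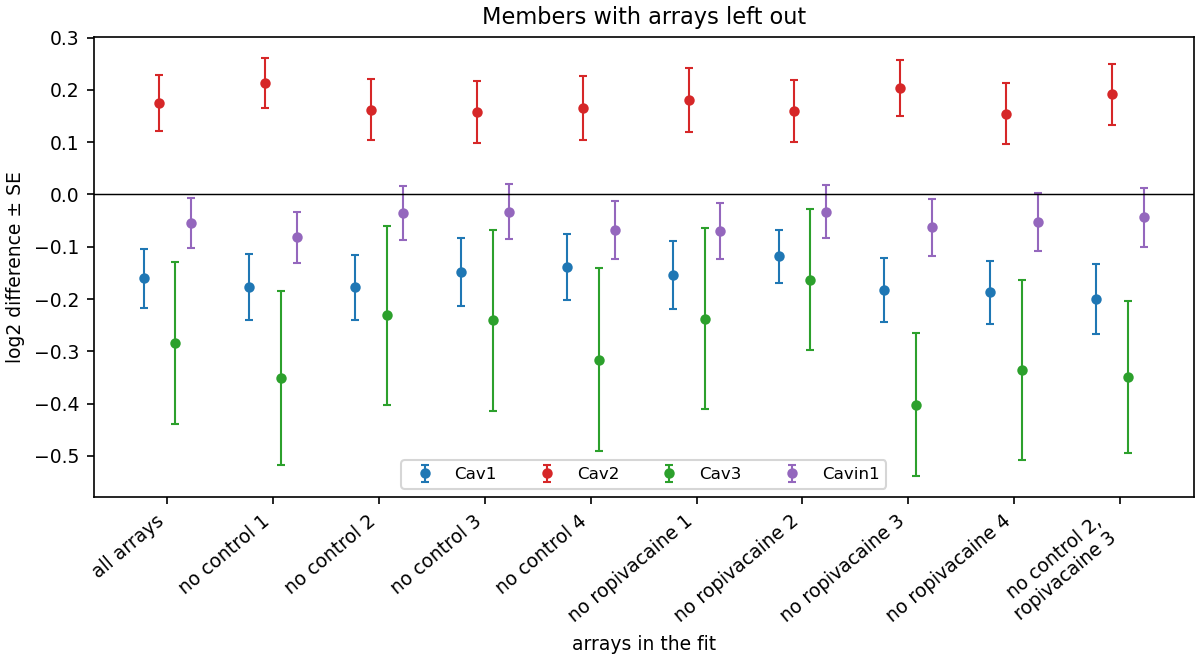
Log2 difference, ropivacaine minus control, with its SE for each member, fitted with all arrays, without each array in turn and without control replicate 2 and ropivacaine replicate 3. Cav2 stays between 0.15 and 0.21, Cav1 between -0.20 and -0.12, and the SE of Cav3 is the widest in every fit.

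Whether the members vary together apart from the treatment was examined through deviations from the group means over the 8 arrays. None of the 6 pairs passed an adjusted threshold of 0.05. The largest coefficient was that of Cav2, the partner caveolin, with Cavin1, the coat protein. For this pair Pearson's r was -0.75 (exact permutation within groups, two-sided, p = 0.036, adjusted over 6 pairs p = 0.21). Spearman's rho was -0.71 (exact permutation p = 0.063, adjusted p = 0.24), and r was -0.63 without the 2 arrays farthest from the median of Cav2. This was the only pair with an unadjusted p below 0.05 for r.

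The pairs of Cav3 with Cav1 and with Cavin1 had positive coefficients that did not pass the test. For Cav1 and Cav3, r was 0.69 (exact permutation p = 0.14, adjusted p = 0.21) and rho was 0.57 (exact permutation p = 0.23, adjusted p = 0.35). Without the 2 arrays farthest from the median of Cav1, that r was 0.42, and without ropivacaine replicate 2 alone it was 0.39. For Cav3 and Cavin1, r was 0.66 (exact permutation p = 0.069, adjusted p = 0.21) and rho was 0.60 (exact permutation p = 0.12, adjusted p = 0.24), and r was 0.62 without the 2 arrays farthest from the median of Cav3.

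The pairs of Cav2 with the other caveolins had negative coefficients that did not pass the test. For Cav2 and Cav3, r was -0.62 (exact permutation p = 0.14, adjusted p = 0.21) and rho was -0.67 (exact permutation p = 0.11, adjusted p = 0.24). Without the 2 arrays farthest from the median of Cav2, that r was -0.95. For the neighbours Cav2 and Cav1, r was -0.41 (exact permutation p = 0.33, adjusted p = 0.39) and rho was -0.21 (exact permutation p = 0.66, adjusted p = 0.73), and r was -0.83 without the 2 arrays farthest from the median of Cav2. Cav1 and Cavin1 had the weakest relation, with r of 0.32 (exact permutation p = 0.42, adjusted p = 0.42), rho of 0.14 (exact permutation p = 0.73, adjusted p = 0.73) and r of 0.08 without the 2 arrays farthest from the median of Cav1. Genes read on the same array share any effect of RNA amplification and scanning particular to it, whose part in these values was not tested. Without control replicate 2 and ropivacaine replicate 3, r was -0.77 for Cav2 and Cavin1, 0.87 for Cav1 and Cav3 and 0.66 for Cav3 and Cavin1. It was -0.32 for Cav2 and Cav3, -0.38 for Cav2 and Cav1 and 0.50 for Cav1 and Cavin1. Here 0 of 6 pairs passed the adjusted threshold, but these 6 arrays allow only 36 arrangements within groups. No pair could have passed alone, so nothing is read from that count.

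**Figure D4:**
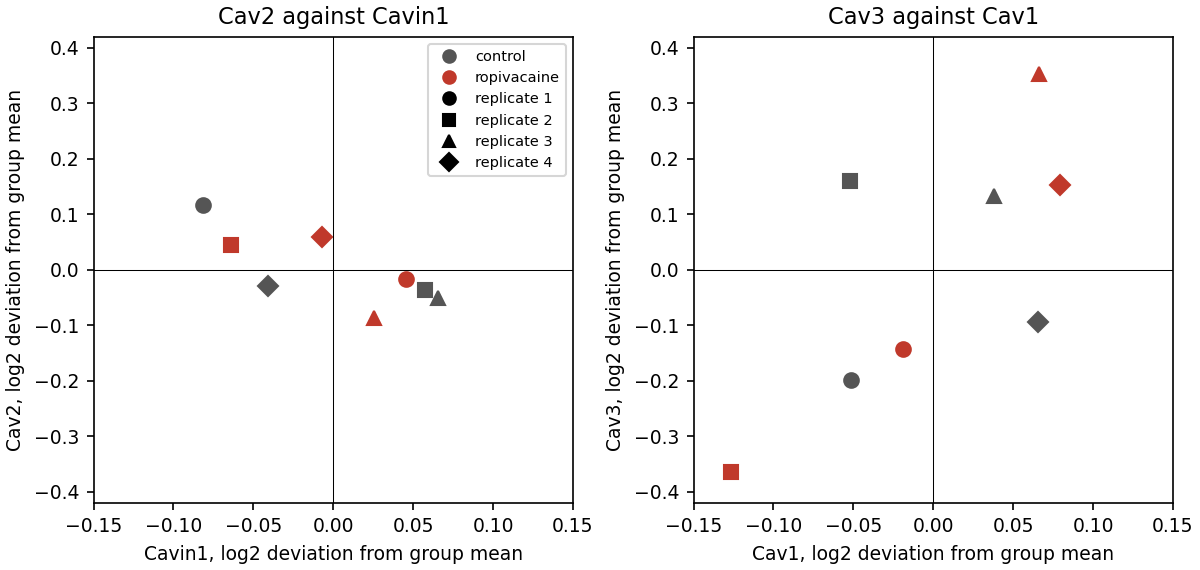
Log2 deviations from the group mean on each array, Cav2 against Cavin1 (left, r = -0.75) and Cav3 against Cav1 (right, r = 0.69), with control arrays in grey, ropivacaine arrays in red and marker shape for the replicate number. Neither relation passed the adjusted threshold.

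The genes with the array profile most like that of Cav2 and of Cav1 were sought by Pearson's r of the log2 values over the 8 arrays, among 13190 genes outside the dimmest 25%. These genes have no names in the files, and r here includes the difference between groups. ENSMUSG00000035765 (r = 0.97) and ENSMUSG00000030545 (r = 0.96) were most like Cav2. Their log2 differences, ropivacaine minus control, were 0.21 (SE 0.05, limma adjusted p = 0.22) and 0.35 (SE 0.11, limma adjusted p = 0.30). ENSMUSG00000032481 (r = 0.98) and ENSMUSG00000002748 (r = 0.97) were most like Cav1, with log2 differences of -0.09 (SE 0.04, limma adjusted p = 0.49) and -0.07 (SE 0.04, limma adjusted p = 0.60). None of the 4 passed the adjusted threshold. Over deviations from the group means, the highest r was 0.97 for both Cav2 and Cav1, and ENSMUSG00000032481 was again among the first 2 for Cav1, with r of 0.96. With 13190 genes and 8 arrays, values of r this high are a description of the best matches only.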

How the data were processed

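Total RNA was amplified to biotin-labelled cDNA and hybridised to Affymetrix Exon 1.0 ST arrays, per the labels' protocols. The authors deposited log2 values, 1 per gene and array, and the submitters' processing notes name RMA as the method. RMA brings all arrays to a common distribution, so quartiles differed between arrays by at most 0.001, and a shift common to all genes cannot be seen. Probe sets, genome build, detection calls and scan dates were not used here, so background and batch could not be tested.

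Groups were taken from the sample titles. All 17592 genes were fitted with limma 3.58.1 in R 4.3.3 (2 groups of 4 arrays, no covariate, no filter, two-sided, Benjamini-Hochberg adjustment, threshold 0.05). The fit was checked on simulated data whose changed genes moved by more than any member did. Recovery of differences as small as those of the members was not checked. Deviations from group means were compared by exact permutation within groups (576 arrangements). The number of arrays limits the precision.

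The members and lists were chosen with earlier results of these data known. The rows carry Ensembl IDs, 0 of which matched the RefSeq table (GRCm38.p6), so 12 lists of 137 symbols (caveolar partners, clathrin endocytosis, cell type markers and others) were not used. Member names come from the rule that defines the set, and promoters were matched by symbol for 4 of 4. The rule for named genes covered the members, called list genes and the 2 genes most like Cav2 and Cav1; of the latter, only those by log2 values are all printed by ID. Same-numbered arrays deviated together with correlations of 0.138, 0.009, 0.056 and 0.070, and the labels state no pairing.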

Additional observations from a re-analysis of the deposited data

Results flagged for a closer look

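Cav2 on control replicate 1 was far from the rest of its group, at 7.741 on the log2 scale. The values of control replicates 2, 3 and 4 were 7.588, 7.574 and 7.596. Dixon's test flagged it at the 95% level, since 0.868 of the range of the 4 values separated it from its closest neighbour. Among the members 8 groups of 4 values were tested, and chance flags about 1 in 20. Without this array the log2 difference of Cav2 was 0.21 in place of 0.17, and the groups no longer overlapped. On the same array Cav3 (5.86) and Cavin1 (7.71) had their lowest control values, which the same test did not flag.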

How the results depend on the processing

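The log2 differences of the 4 members kept their direction, and moved by less than 1 residual SD, in all 67 combinations of member and alternative. An intensity trend, robust variance moderation and leaving out dim genes change only the SE, so these differences were unchanged by construction. Both scalings (quantile normalization and median centring) left them almost unchanged, as the arrays already shared a common distribution. With 4 arrays a group, leaving out 1 array, or 1 from each group, cannot move a difference by more than 1 residual SD. The size of these moves is therefore no sign of stability. Over them Cav2 ranged from 0.15 to 0.21, Cav1 from -0.20 to -0.12, Cav3 from -0.40 to -0.16 and Cavin1 from -0.08 to -0.03. No member passed the adjusted threshold in any of these fits. Cav3 has no value without the dimmest 50% of genes, which include it. With the replicate number as a block (replicate block), the differences were also the same by construction. The SE fell to 0.04 from 0.06 for Cav1 and to 0.14 from 0.16 for Cav3. It rose to 0.0541 from 0.0534 for Cav2 and to 0.0542 from 0.0482 for Cavin1. The count of genes passing the threshold among all genes, 71, was less stable. It was 135 with an intensity trend, 114 and 179 without the dimmest 25% and 50% of genes, where fewer genes were tested, and 3 with the replicate block. A threshold of 0.01 gave 15 genes, a minimum log2 difference of 0.5 gave 14, and the count was 15 to 31 with 1 array left out and 7 without both arrays of lowest weight, a choice made after seeing the data. Stricter thresholds lower the count by construction, and the cause of the other changes in count was not tested. The number of member pairs past the adjusted threshold was 0 under both scalings, with any 1 array left out and without both arrays of lowest weight, the settings run for them. These counts are no sign of stability. Both scalings left r almost unchanged, and with fewer arrays the small number of arrangements leaves a pair little or no room to pass. With 1 array left out, r ranged from 0.39 to 0.86 for Cav1 and Cav3, from -0.09 to 0.53 for Cav1 and Cavin1, from 0.52 to 0.84 for Cav3 and Cavin1, from -0.72 to -0.25 for Cav2 and Cav1, from -0.82 to -0.39 for Cav2 and Cav3 and from -0.86 to -0.53 for Cav2 and Cavin1. Alternatives for the lists of symbols were not run, because the rows carry no symbols. The signal over background is unknown, which limits Cav3 most.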
